A study of Homo sapiens with 8 samples.

Results

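A set of genes that the ERK pathway switches on and that mostly act back on it were followed across human colon cancer cells grown as spheres and cells labelled as expressing the transcription factor Snail. They were the MAP kinase phosphatases DUSP4, DUSP5 and DUSP6, the Sprouty and Spred proteins SPRY2, SPRY4, SPRED1 and SPRED2, the ETS transcription factors ETV4 and ETV5, and PHLDA1. The 10 genes are 10 of 19775 genes on the arrays and were read by 28 of 54675 probe sets, taken where a probe set was annotated to 1 symbol. Each gene is represented by its probe set with the highest mean over the 8 arrays, and all 10 were measured.

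Gene expression had been measured on 8 Affymetrix arrays, 2 in each of 4 groups. HT29 spheres, called 1st spheres in the labels, had been grown in serum-free DMEM-F12 with a N2 supplement, 10 ng/ml EGF and 10 ng/ml bFGF. HT29 parental cells were kept in DMEM with 10% fetal bovine serum. The SW480 cells were a stable line labelled as expressing Snail and a line with the empty vector, both in DMEM with 10% fetal bovine serum. HT29 and SW480 are established lines from human colorectal adenocarcinomas, and both carry an activating mutation in the pathway upstream of ERK. The spheres differed from parental cells in growth form, serum and added growth factors together, and these cannot be told apart. How many clones each SW480 line comes from is not stated in the labels. The arrays of a group are not stated to come from separate cultures, so p-values refer to the spread between partner arrays and that spread may be technical.

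The ERK pathway carries signals from growth factor receptors such as those for EGF and FGF through RAS, RAF and MEK to the kinase ERK. Active ERK induces a set of genes whose products brake the pathway at several levels, so their transcripts are often read as a record of recent ERK output. The DUSP proteins remove phosphate from MAP kinases, and DUSP5, in the nucleus, and DUSP6, in the cytoplasm, prefer ERK. Sprouty and Spred proteins restrain the steps between receptor and RAF, and Spred proteins act together with neurofibromin. ETV4 and ETV5 belong to the PEA3 family of ETS factors that act downstream of receptor signalling.

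The values are log2 RMA values, in which 1 unit is a 2-fold difference, and the same probe set is compared between groups. Array medians lay between 5.50 and 5.61. Partner arrays correlated at 0.9907 in the parental pair and at 0.995 or more in the other 3 pairs. The parental pair was the least alike, with 200 genes at least 2-fold apart, against 13 in the sphere pair, 10 in the Snail-labelled pair and 19 in the vector pair. Of the 10 feedback genes, 0 were 2-fold apart in any pair, and their largest gap between partners was 0.85 (DUSP5 in the Snail-labelled pair). Of 9 colon epithelial markers, 7 lay above the array median on all 8 arrays, while KRT20 did so on the 4 HT29 arrays and CDH17 on the 2 sphere arrays. Of markers of other cell types, 2 of 4 leukocyte (CD3E and LYZ), 2 of 5 fibroblast (COL1A1 and DCN) and 1 of 4 endothelial genes (PECAM1) also lay above it on all 8 arrays. CD14 did so on 5 arrays and COL1A2 and LUM on 2 each, and the leukocyte marker PTPRC, the fibroblast marker COL3A1 and 3 endothelial markers did so on 0. LYZ averaged 12.94 in spheres and 12.87 in parental cells, and LUM 8.43 in spheres and 4.65 in parental cells. The part of such transcripts in the results was not tested.

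SNAI1, which encodes Snail, read 6.32 and 6.38 on the arrays labelled Snail, against 6.36 and 6.34 on the vector arrays. That is a difference of 0.00 ± 0.15 (SE; limma adjusted p = 0.99), so the data do not show the labelled gene higher. The labels do not say whether the probe set reads the introduced transcript, and the direction of the SW480 comparison rests on the labels. SNAI1 read 6.93 and 7.21 in HT29 spheres, against 5.87 and 6.15 in parental cells, which is 1.07 ± 0.15 higher in spheres (limma adjusted p = 0.00032).

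In HT29 spheres the feedback genes moved in both directions. DUSP5 and DUSP4 rose and ETV5, ETV4, SPRED1, SPRED2, SPRY2 and DUSP6 fell, while SPRY4 and PHLDA1 did not pass the threshold, an adjusted p under 0.05 over all 19775 genes in limma. ETV5 was 5.01-fold lower and DUSP5 6.54-fold higher, and the other 6 called genes differed by 1.36-fold to 1.72-fold. The 8 of 10 called genes stand against 31.4% of all genes called in this comparison, with 12.4% higher and 19.0% lower. Among genes outside the dimmest 40%, where all 10 lie, 44.8% were called. The 10 genes had a median difference of -0.45, beside 0.04 over all genes. The arrays of spheres and parental cells did not overlap in any of the 10, which was also so for 62.9% of all genes. Without sphere array 1 the count of called genes was 4, with DUSP6, SPRY2, SPRED1 and SPRED2 lost.

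**Figure D1:**
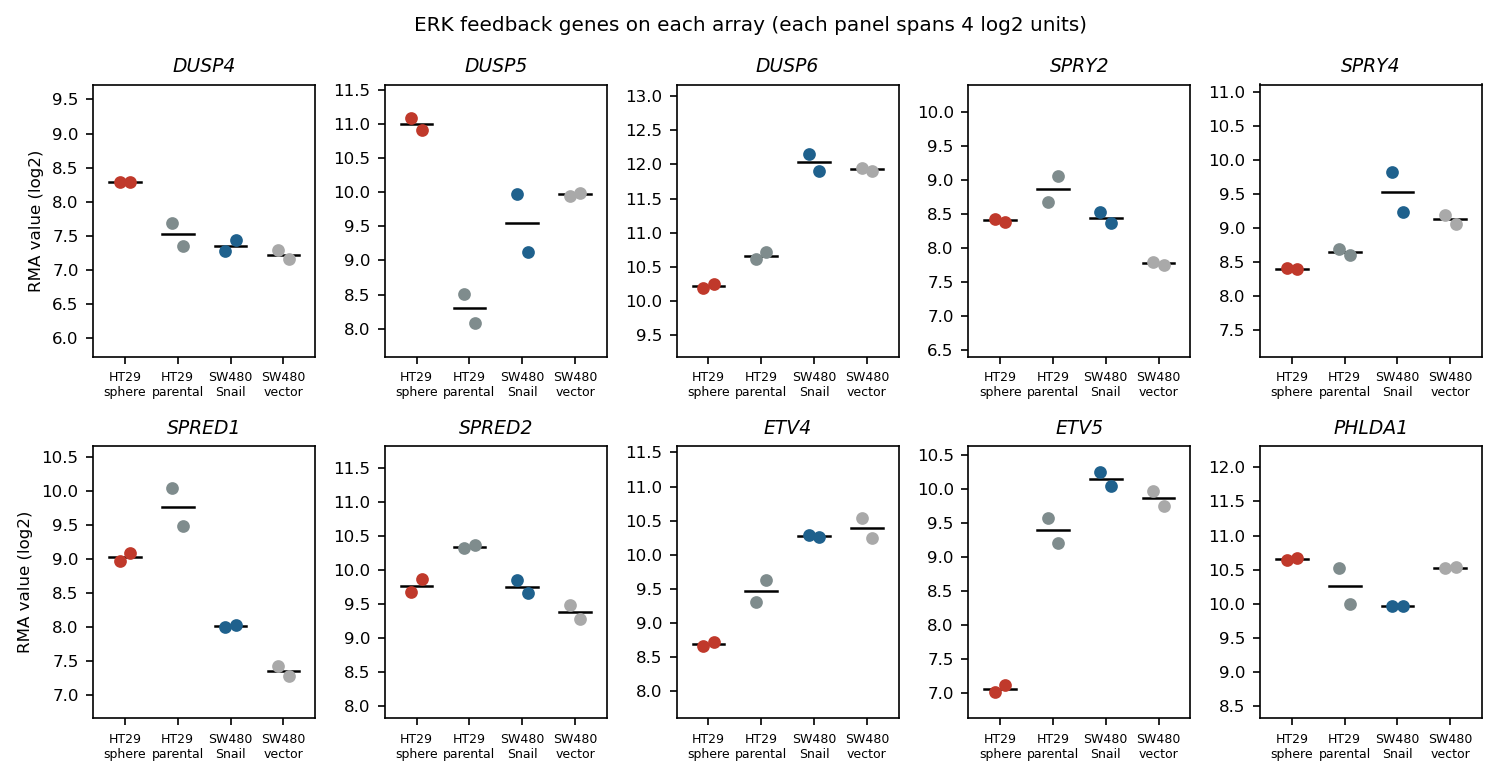
RMA value (log2) of each of the 10 feedback genes on each of the 8 arrays. Points are arrays and bars are group means, and each panel spans 4 log2 units. The 2 sphere arrays are the highest of all 8 for DUSP4, DUSP5 and PHLDA1 and the lowest for DUSP6, SPRY4, ETV4 and ETV5.

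Of the phosphatases, DUSP5 read 11.09 and 10.92 in spheres, against 8.51 and 8.08 in parental cells. Both sphere arrays lay above all 6 other arrays of the series. The difference was 2.71 ± 0.24 (SE; limma adjusted p = 2.2e-05). DUSP4, a nuclear phosphatase of ERK, JNK and p38, read 8.29 and 8.29 in spheres, against 7.69 and 7.35 in parental cells. Both sphere arrays were again the highest of the 8, with a difference of 0.77 ± 0.15 (limma adjusted p = 0.0025). Its other 2 probe sets differed by 0.37 and 0.42 in the same direction and did not pass among all probe sets (adjusted p = 0.22 and 0.097). DUSP6, the cytoplasmic ERK phosphatase, differed in the other direction, with 10.19 and 10.24 in spheres and 10.61 and 10.71 in parental cells. The difference was -0.44 ± 0.13 (limma adjusted p = 0.027), and its 3 probe sets differed by -0.41 to -0.56, of which 2 passed. The DUSP6 call was lost without parental array 2 (adjusted p = 0.09), sphere array 1 (0.13) or sphere array 2 (0.075), and when HT29 was fitted alone (0.059).

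Sprouty and Spred genes were lower in spheres on average, and 3 of 4 passed. SPRED1 read 8.97 and 9.08 in spheres, against 10.04 and 9.48 in parental cells. The lower parental array still lay above both spheres, and the difference was -0.73 ± 0.18 (limma adjusted p = 0.0095). All 3 SPRED1 probe sets fell, with the largest difference of -1.45 at 235074_at. SPRED2 read 9.68 and 9.86 in spheres, against 10.32 and 10.36 in parental cells, a difference of -0.57 ± 0.14 (limma adjusted p = 0.0099). Its other 2 probe sets had lower means over the 8 arrays, 6.21 and 3.94, the second below every array's median, and differed by -0.27 and -0.11 without passing. The mean of its 3 probe sets did not pass (-0.32, adjusted p = 0.092). Without sphere array 1, SPRED1 (-0.68, adjusted p = 0.069) and SPRED2 (-0.48, adjusted p = 0.082) did not pass. The SPRED1 difference itself lay between -1.01 and -0.45 as arrays were left out, the smallest without parental array 1.

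SPRY2 read 8.43 and 8.38 in spheres, against 8.67 and 9.05 in parental cells, a difference of -0.46 ± 0.15 (limma adjusted p = 0.038). Its call was lost in 7 of the 8 fits that left out 1 array, including those without any 1 SW480 array (adjusted p = 0.055 to 0.057), and is the weakest of the 6 falls. The difference was -0.27 (adjusted p = 0.18) without parental array 2, -0.48 (0.11) without sphere array 1 and -0.43 (0.14) without sphere array 2. SPRY4 read 8.41 and 8.40 in spheres, against 8.70 and 8.60 in parental cells. The groups did not overlap, but the difference of -0.24 (95% interval -0.64 to 0.15) did not pass (limma adjusted p = 0.34).

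The ETS factors were lowest in spheres of all 4 groups, as were DUSP6 and SPRY4. ETV5 read 7.01 and 7.11 in spheres, against 9.57 and 9.20 in parental cells. This was the largest fall among the 10 genes, -2.32 ± 0.16 (limma adjusted p = 3.6e-06). Of the 5 ETV5 probe sets 4 fell, with differences of -1.30 to -2.44, and the fifth lay below every array's median. ETV4 read 8.65 and 8.72 in spheres, against 9.31 and 9.62 in parental cells, a difference of -0.78 ± 0.15 (limma adjusted p = 0.0025), and its other probe set had -1.21. The calls of ETV4, ETV5, DUSP4 and DUSP5 held in all 8 fits that left out 1 array.

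PHLDA1, a pleckstrin homology-like protein also known as a negative regulator of receptor signalling, read 10.64 and 10.67 in spheres, against 10.52 and 9.99 in parental cells. The difference of 0.40 (95% interval 0.04 to 0.77) did not pass (limma adjusted p = 0.092), but did so without parental array 1 (0.66, adjusted p = 0.0047). The 6 PHLDA1 probe sets did not move together. The 2 that passed both fell in spheres, 225842_at with a log2 fold change of -1.16 and 217999_s_at with -0.77, while the brightest, 217996_at, was higher. No single direction can therefore be given for PHLDA1 from these arrays.

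**Figure D2:**
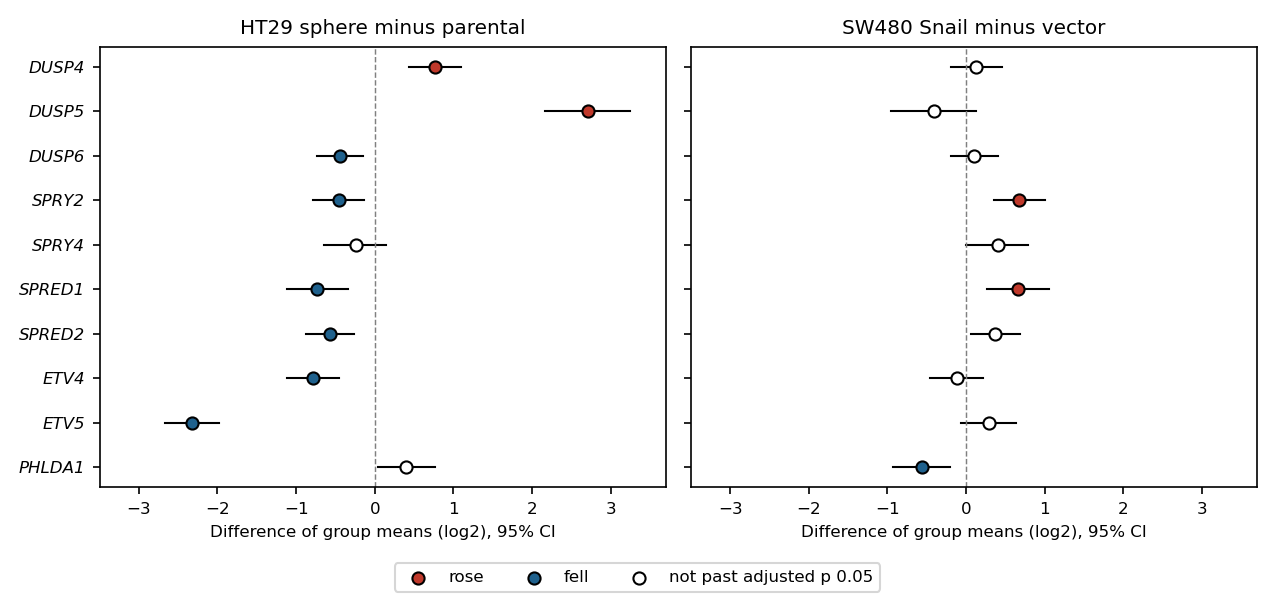
Difference of group means (log2) with 95% intervals for each feedback gene, HT29 sphere minus parental on the left and SW480 Snail minus vector on the right. Filled points passed an adjusted p under 0.05 in limma, 8 genes on the left and 3 on the right.

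In SW480 cells labelled Snail fewer of the feedback genes passed, and the called changes were small. SPRY2 and SPRED1 rose and PHLDA1 fell, by 1.48-fold to 1.59-fold, and the other 7 did not pass. The 3 of 10 called genes stand against 16.2% of all genes called, with 8.91% higher and 7.34% lower, and against 23.2% outside the dimmest 40%. The median difference was 0.21, beside 0.01 over all genes. The Snail-labelled and vector arrays did not overlap in 6 of the 10 genes, against 60.4% of all genes. The count was 0 without either vector array, 1 (DUSP5) without Snail-labelled array 1 and 2 (SPRY2 and SPRY4) without Snail-labelled array 2, and it was 1 with the mean of all probe sets of each gene.

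SPRY2 read 8.52 and 8.37 in Snail-labelled cells, against 7.80 and 7.75 in vector cells. Both Snail-labelled arrays lay above both vector arrays, with a difference of 0.67 ± 0.15 (SE; limma adjusted p = 0.012). SPRED1 read 7.99 and 8.03 in Snail-labelled cells, against 7.43 and 7.27 in vector cells, and rose by 0.66 ± 0.18 (limma adjusted p = 0.030). Its other 2 probe sets differed by 0.22 and -0.01 and did not pass, and neither did the mean of the 3 (0.29, adjusted p = 0.11). SPRED2 read 9.85 and 9.66 in Snail-labelled cells and 9.49 and 9.28 in vector cells, which do not overlap, but its difference of 0.37 ± 0.14 did not pass (limma adjusted p = 0.10). SPRY4 read 9.82 and 9.24 in Snail-labelled cells, against 9.20 and 9.06 in vector cells. Its difference of 0.40 did not pass (limma adjusted p = 0.17) and was 0.69 (adjusted p = 0.038) without Snail-labelled array 2 and 0.11 without Snail-labelled array 1. The SPRED1 call was lost when any 1 SW480 array was left out (0.58 to 0.74, adjusted p = 0.083 to 0.16). The SPRY2 call was lost without vector array 1 (0.70, adjusted p = 0.059), vector array 2 (0.64, 0.077) or Snail-labelled array 1 (0.60, 0.093).

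PHLDA1 read 9.97 and 9.96 in Snail-labelled cells, against 10.52 and 10.54 in vector cells. Partner arrays lay close together in both groups, and the difference was -0.56 ± 0.16 (limma adjusted p = 0.043). The 6 probe sets again pointed both ways, with 225842_at higher by 1.10 (adjusted p = 0.00085) and 218000_s_at lower (log2 fold change -0.66, adjusted p = 0.034), both among all probe sets. The mean of the 6 differed by -0.03 (adjusted p = 0.92). The call of the brightest probe set was lost in 6 of the 8 fits that left out 1 array, at -0.55 to -0.58. The adjusted p was 0.067 without either sphere array, 0.15 without vector array 1, and 0.16 to 0.17 without vector array 2 or either Snail array.

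**Figure D3:**
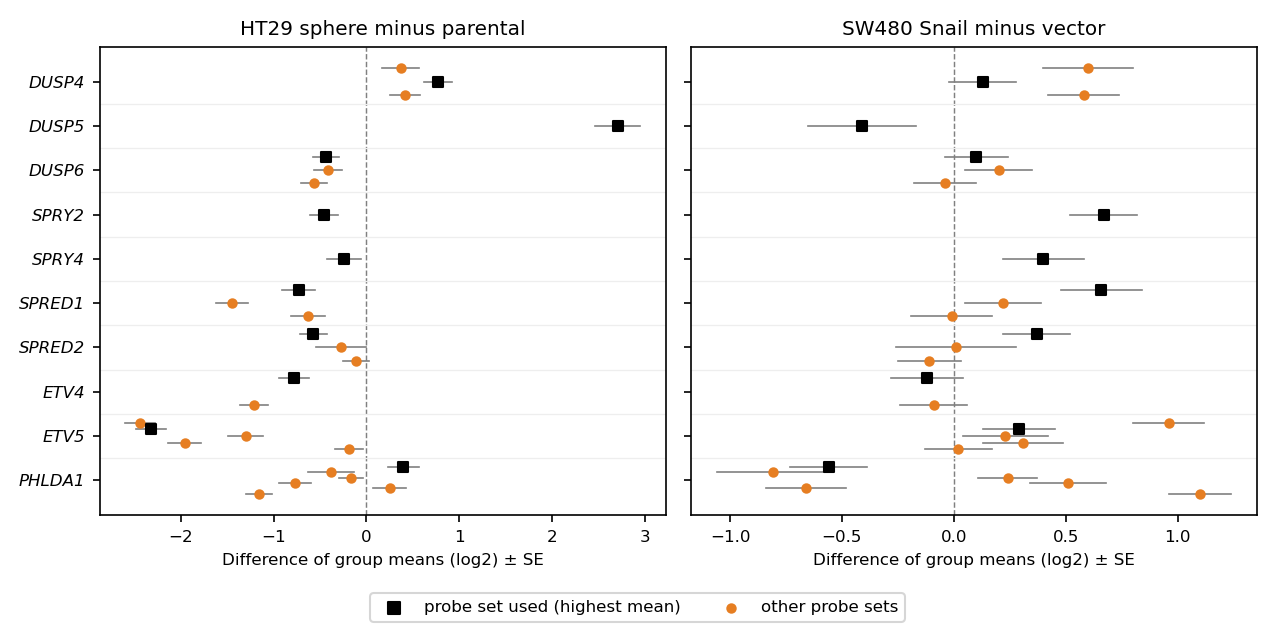
Difference of group means (log2) ± SE for each of the 28 probe sets of the feedback genes, spheres minus parental on the left and Snail minus vector on the right. Black squares are the probe sets used and orange points the others, and PHLDA1's 6 probe sets lie on both sides of 0 in both panels.

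Of the phosphatases, DUSP4 read 7.27 and 7.44 in Snail-labelled cells, against 7.29 and 7.15 in vector cells. These overlap, and the difference of 0.13 (95% interval -0.19 to 0.46) did not pass (limma adjusted p = 0.61). Its probe set 226034_at was higher in Snail-labelled cells (0.58 ± 0.16, adjusted p = 0.043 among all probe sets). The third DUSP4 probe set, 204014_at, differed by 0.6 ± 0.2 and did not pass (0.074). Averaging the 3 gave 0.44, which did not pass either (adjusted p = 0.073). DUSP5 read 9.98 and 9.13 in Snail-labelled cells, against 9.95 and 9.99 in vector cells, so that Snail-labelled array 2 alone was low. Its difference was -0.41 (limma adjusted p = 0.30), -0.84 (adjusted p = 0.041) without Snail-labelled array 1 and 0.01 without Snail-labelled array 2. DUSP6 read 12.16 and 11.90 in Snail-labelled cells and 11.95 and 11.91 in vector cells, with a difference of 0.10 (95% interval -0.19 to 0.40; limma adjusted p = 0.67).

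ETV4 read 10.29 and 10.26 in Snail-labelled cells, within the vector cells' 10.54 and 10.25. ETV5 read 10.24 and 10.04 in Snail-labelled cells, against 9.96 and 9.75 in vector cells. Neither passed, with differences of -0.12 (limma adjusted p = 0.65) for ETV4 and 0.29 (0.26) for ETV5. The ETV5 probe set 203348_s_at rose by 0.96 (adjusted p = 0.0031), the only 1 of 5 to pass. Counted over all 28 probe sets, 2 rose and 14 fell in spheres, where 23.2% of all probe sets were called, and 5 rose and 1 fell in Snail-labelled cells, where 11.9% were. For the difference between these comparisons 3 were higher and 11 lower (20.2% of all probe sets called), and between vector and parental cells 11 and 9 (37.2%).

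The sphere and Snail comparisons share no array, and the difference between them was tested as an interaction, sphere minus parental less Snail minus vector. It passed in 8 of the 10 genes, 3 higher and 5 lower, against 27.5% of all genes and 39.1% outside the dimmest 40%. DUSP5 had 2.71 in the sphere comparison and -0.41 in the Snail comparison, a difference of 3.12 ± 0.34 (SE; limma adjusted p = 0.00013). ETV5 had -2.32 and 0.29 in the same order, a difference of -2.61 ± 0.22 (limma adjusted p = 3.1e-05). SPRED1, SPRY2 and SPRED2 were lower in spheres and higher in Snail-labelled cells, and differed by -1.39 (adjusted p = 0.0022), -1.13 (0.0026) and -0.94 (0.0052). The SPRED2 difference in the Snail comparison did not pass by itself (0.37, limma adjusted p = 0.10). PHLDA1 differed by 0.96 (adjusted p = 0.011) at its brightest probe set. Among all probe sets, 218000_s_at gave 0.91 (adjusted p = 0.024), 225842_at -2.26 (4.1e-05) and 217999_s_at -1.28 (0.0034). The remaining PHLDA1 probe sets, 217997_at (0.43) and 217998_at (-0.42), did not pass. DUSP4 (0.64, adjusted p = 0.044) and ETV4 (-0.66, adjusted p = 0.041) passed narrowly. Among all probe sets, the other ETV4 probe set gave -1.12 (adjusted p = 0.0035), while the one used did not pass (0.058). Averaging the 2 ETV4 probe sets gave -0.89 (adjusted p = 0.0062). The other 2 DUSP4 probe sets pointed the other way, with -0.23 and -0.16, and averaging the 3 left 0.08 (adjusted p = 0.81). With the mean of its probe sets SPRED2 did not pass either (-0.41, adjusted p = 0.13), and that of PHLDA1 was -0.27 (0.31). DUSP4's call was lost in 7 of the 8 fits that left out 1 array, all but that without parental array 1, at 0.47 to 0.73 (adjusted p = 0.066 to 0.14). ETV4's was lost in 6, all but those without parental array 1 or vector array 1, at -0.51 to -0.70 (adjusted p = 0.077 to 0.15). DUSP6 (-0.54, adjusted p = 0.055) and SPRY4 (-0.64, adjusted p = 0.085) did not pass, and both did without Snail-labelled array 2 (-0.67, 0.046 and -0.93, 0.014).

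The lines themselves differed in most of these genes. In SW480 vector cells DUSP5, DUSP6, ETV4, SPRY4 and ETV5 were higher than in HT29 parental cells and SPRED1, SPRY2 and SPRED2 were lower, 8 of 10 against 46.1% of all genes called, with 22.6% higher and 23.5% lower, and 61.1% outside the dimmest 40%. Vector and parental arrays did not overlap in any of the 10, against 72.2% of all genes. This comparison shares the vector arrays with the Snail comparison and the parental arrays with the sphere comparison. SPRED1 differed most, by -2.41 ± 0.18 (SE; limma adjusted p = 1.6e-06), which is 5.31-fold lower in SW480 vector cells. DUSP5 was higher by 1.67 ± 0.24 (adjusted p = 0.00024), DUSP6 by 1.27 ± 0.13 (2.1e-05) and ETV4 by 0.93 (0.00046). SPRY2 and SPRED2 were lower, with log2 differences of -1.09 (adjusted p = 0.00014) and -0.95 (0.00023). SPRY4 at 0.48 (adjusted p = 0.046) and ETV5 at 0.47 (0.031) passed narrowly. Among all probe sets, ETV5 gave 0.18 (adjusted p = 0.4) at 203348_s_at and 0 at 230102_at, and neither passed. It gave 1.18 (0.00042) at 216375_s_at and 0.62 (0.0071) at 231083_at, the latter below every array's median. Averaging the 5 ETV5 probe sets gave 0.49 (0.011). The SPRY4 call was lost without any 1 of the parental, sphere or vector arrays (adjusted p = 0.066 to 0.19). The ETV5 call was lost without parental array 2 (0.29, 0.18) or vector array 1 (0.37, 0.18). DUSP4 at -0.30 (0.13) and PHLDA1 at 0.28 (0.20) did not pass, but DUSP4 did without parental array 2 (-0.47, 0.031) and PHLDA1 without parental array 1 (0.54, 0.0079). The other 2 DUSP4 probe sets were lower in vector cells by more, with -1.67 (adjusted p = 4.7e-05) and -1.56 (2.1e-05) among all probe sets, and averaging the 3 left -1.17 (0.00011). PHLDA1 again had probe sets that passed in both directions, from -1.37 (1.9e-05) at 225842_at to 1.29 (0.00015) at 218000_s_at. With the mean of its 3 probe sets SPRED2 did not pass (-0.30, 0.087).

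The order of the 4 groups differed between the genes. DUSP6 and SPRY4 were highest in Snail-labelled cells, then vector, parental and sphere cells, and only Snail-labelled and vector cells overlapped, for DUSP6. ETV5 had the same order and ETV4 had vector cells first, overlapping Snail-labelled cells. SPRED1 and SPRED2 were highest in parental cells, then spheres, Snail-labelled and vector cells, with spheres and Snail-labelled cells overlapping for SPRED2. DUSP5 ran from spheres through vector and Snail-labelled cells, which overlap, to parental cells. DUSP4 was highest in spheres, then in parental, Snail-labelled and vector cells, and the last 3 overlapped with their neighbours. SPRY2 ran from parental cells through Snail-labelled cells and spheres, which overlap, to vector cells. PHLDA1 ran from spheres through vector and parental cells to Snail-labelled cells, and the nearest arrays of vector and parental cells were apart by under 0.01. The widest span of group means was that of ETV5 (3.08) and the narrowest that of PHLDA1 (0.69).

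Over the 8 arrays the feedback genes fell into sets that followed each other, which is a description, since the arrays share 2 cell lines and 4 conditions. DUSP6 was most like ETV4 (r = 0.962), SPRY4 most like DUSP6 (r = 0.928) and ETV5 most like ETV4 (r = 0.916). SPRY2 and SPRED2 were most like each other (r = 0.917), and SPRED1 most like SPRED2 (r = 0.884). DUSP4, DUSP5 and PHLDA1 had no member closer, by the highest r, than PHLDA1 with DUSP5 (r = 0.587). DUSP4 ran opposite to ETV4 and ETV5 (r = -0.93 with each) and to DUSP6 (r = -0.84). In the whole table the genes most like DUSP6 were TUBB2B (r = 0.9968), ROBO1 (0.9946) and PKIG (0.9936). Those most like ETV5 were MCM2 (0.9962), ITGB5 (0.9951) and HNRNPD (0.9948), where MCM2 encodes a subunit of the replicative helicase. Those most like PHLDA1 were SLC25A37 (0.97), LENG1 (0.9658) and FHL2 (0.9588).

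**Figure D4:**
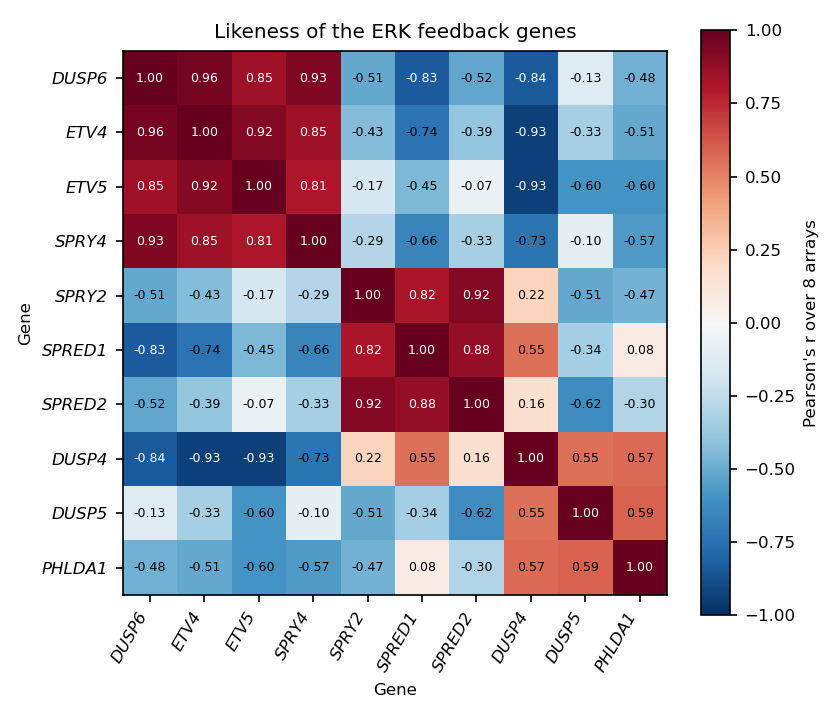
Pearson's r over the 8 arrays between each pair of the 10 feedback genes. DUSP6, ETV4, ETV5 and SPRY4 form one red block and SPRY2, SPRED1 and SPRED2 another.

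The stretches of 250 bases before the start site are shown for DUSP6 and SPRY4, which followed each other, and for SPRY2, SPRED1 and SPRED2, which did so too. They were taken from RefSeq, build GRCh38.p14, run 5′ to 3′ on the gene's strand, and have GGAA, the core of ETS factor sites, or its reverse complement TTCC in capitals. Of the 10 genes, 6 had an entry in the RefSeq table. For genes with several starts the most upstream is shown.
DUSP6, chr12:89352502-89352751, minus strand: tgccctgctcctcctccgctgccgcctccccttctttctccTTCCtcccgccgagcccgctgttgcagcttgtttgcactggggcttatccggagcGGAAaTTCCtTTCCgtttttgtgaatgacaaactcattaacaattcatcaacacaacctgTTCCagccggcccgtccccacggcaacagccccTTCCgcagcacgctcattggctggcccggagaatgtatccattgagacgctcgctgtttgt
SPRY4, chr5:142324248-142324497, minus strand: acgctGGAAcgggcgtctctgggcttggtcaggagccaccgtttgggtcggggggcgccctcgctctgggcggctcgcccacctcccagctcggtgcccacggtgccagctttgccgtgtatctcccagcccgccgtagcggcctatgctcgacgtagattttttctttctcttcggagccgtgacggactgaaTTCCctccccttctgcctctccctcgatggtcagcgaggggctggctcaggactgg
SPRY2, chr13:80341127-80341376, minus strand: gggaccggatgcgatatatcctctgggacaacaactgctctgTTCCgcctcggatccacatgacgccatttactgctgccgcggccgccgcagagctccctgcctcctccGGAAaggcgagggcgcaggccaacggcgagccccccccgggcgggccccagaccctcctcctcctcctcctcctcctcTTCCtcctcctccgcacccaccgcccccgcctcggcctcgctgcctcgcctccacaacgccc
SPRED1, chr15:38252586-38252835, plus strand: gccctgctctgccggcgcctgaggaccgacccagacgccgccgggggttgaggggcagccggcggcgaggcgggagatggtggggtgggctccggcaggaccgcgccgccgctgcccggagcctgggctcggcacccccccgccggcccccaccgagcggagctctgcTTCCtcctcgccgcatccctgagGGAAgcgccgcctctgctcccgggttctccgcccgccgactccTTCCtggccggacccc
SPRED2, chr2:65432600-65432849, minus strand: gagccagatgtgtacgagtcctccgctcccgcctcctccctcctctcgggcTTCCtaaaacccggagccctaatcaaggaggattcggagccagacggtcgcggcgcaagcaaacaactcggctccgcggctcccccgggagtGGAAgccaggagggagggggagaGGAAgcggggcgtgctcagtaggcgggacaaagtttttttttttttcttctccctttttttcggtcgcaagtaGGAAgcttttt
The core motif occurred 6 times before DUSP6, 4 times before SPRED2, 3 times before SPRY2 and SPRED1, and 2 times before SPRY4. It is short and was present in 92.7% of 35116 windows of this length, with a median of 3 matches. CCGGAA, searched on both strands and overlapping GGAA, occurred 1 time before SPRY2 and 0 times before the other 4, and was held by 14.5% of windows. TGANTCA, the AP-1 motif, and CAGGTG, an E-box that Snail can bind, were in 0 of these 5 stretches and in 6.57% and 17.5% of all windows. Before PHLDA1, which had an entry but is not shown, GGAA occurred 4 times and CCGGAA 1 time. The other starts of SPRY2 and SPRED2 had GGAA 4 to 5 times and CCGGAA 0 times. A match is a description of these letters and not a binding site.

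Other genes of the pathway were grouped in lists, and the direction of the called genes differed between lists. In spheres those of the other MAP kinase phosphatases only rose and those of the RAS to ERK cascade only fell. Called genes among the other ERK-induced genes mostly rose in both comparisons. EGF and FGF receptors and ligands had calls in both directions in each comparison. The lists hold genes other than the 10 above, and listed genes that had no probe set of their own in the gene table were not analysed here. The counts of called genes in each list stand against 31.4% of all genes in spheres (12.4% higher, 19.0% lower) and 16.2% in Snail-labelled cells (8.91% higher, 7.34% lower). Of 7 other MAP kinase phosphatases, 3 rose and 0 fell in spheres, and 3 rose and 1 fell in Snail-labelled cells. DUSP2, a nuclear phosphatase, rose in both, by 1.22 in spheres (limma adjusted p = 0.00019) and by 1.21 in Snail-labelled cells (0.00081). DUSP10, which acts mainly on JNK and p38, rose by 0.87 in spheres (adjusted p = 0.001), and DUSP16 by 0.94 in Snail-labelled cells (0.0036). DUSP1 read 12.29 and 12.15 in spheres, against 10.14 and 11.38 in parental cells (1.46 ± 0.30, adjusted p = 0.0041), and its parental arrays were far apart.

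Of 11 other brakes of receptor and RAS signalling, 2 rose and 2 fell in spheres, and 1 rose and 0 fell in Snail-labelled cells. NF1, counted among the rises in spheres, read 4.16 and 4.46 there and 3.47 and 3.76 in parental cells, below every array's median. ERRFI1, an inhibitor of the EGF receptor, was higher in spheres by 1.17 (limma adjusted p = 0.00032), and LRIG1, another, fell (log2 fold change -0.82, adjusted p = 6e-04). SPRY1, another Sprouty gene, read 6.66 and 7.01 in Snail-labelled cells, against 5.89 and 5.31 in vector cells, and rose by 1.23 (adjusted p = 0.0021). In spheres SPRY1 differed by -0.38 and did not pass (adjusted p = 0.16).

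Of 15 other ERK-induced genes, 6 rose and 1 fell in spheres and 9 rose and 1 fell in Snail-labelled cells, with medians of 0.44 and 0.75 beside 0.04 and 0.01 over all genes. FOSL1, an AP-1 subunit, read 9.87 and 9.86 in spheres, against 7.91 and 7.23 in parental cells (2.30 ± 0.20, limma adjusted p = 1.8e-05). ETV1, the third PEA3 factor, read 5.80 and 6.14 in spheres, against 8.07 and 7.67 in parental cells, and fell (log2 fold change -1.90, adjusted p = 2.2e-05). In SW480, EGR1, an early growth response factor, read 13.41 and 13.09 in Snail-labelled cells, against 11.07 and 11.15 in vector cells (2.14 ± 0.25, adjusted p = 0.00053), and IER2 rose by 1.09 (0.0011). FOSL1 was lower in Snail-labelled cells than in vector cells (-1.09, adjusted p = 0.0049).

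**Figure D5:**
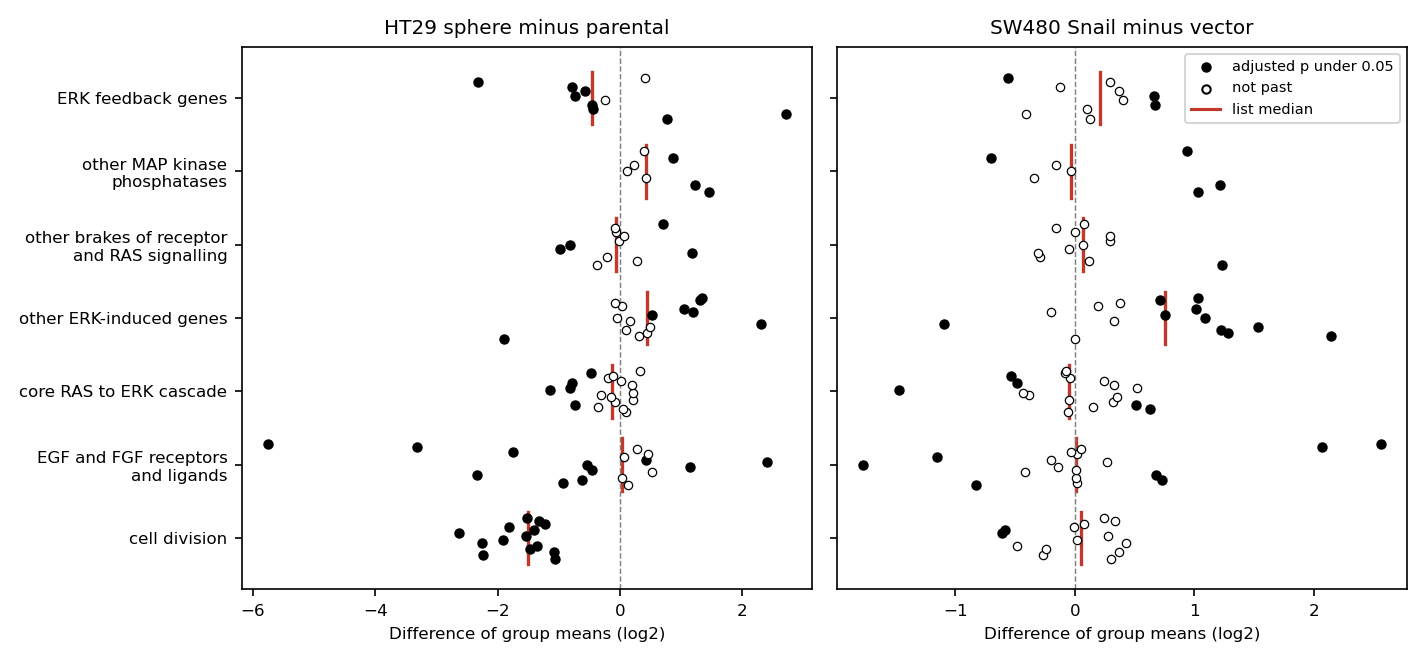
Difference of group means (log2) of each gene of the 7 lists, spheres minus parental on the left and Snail minus vector on the right. Each point is a gene, filled where it passed an adjusted p under 0.05, and red bars are list medians. The 14 cell division genes are all filled and below 0 on the left.

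Of 18 genes of the cascade from RAS to ERK, out of 23 listed, 0 rose and 5 fell in spheres, a share near that of all genes, and 2 rose and 3 fell in Snail-labelled cells. KSR1, a scaffold of RAF, MEK and ERK, fell in both, with log2 fold changes of -1.15 in spheres (limma adjusted p = 0.00021) and -1.47 in Snail-labelled cells (0.00023). MAP2K2, which encodes a form of MEK, fell in spheres (-0.79, adjusted p = 0.0016), and the adaptor SHC1 rose by 0.63 in Snail-labelled cells (0.0074). Of 17 EGF and FGF receptors and ligands, 3 rose and 8 fell in spheres, and 4 rose and 3 fell in Snail-labelled cells. KLB, counted among the rises in spheres, read 5.16 and 5.3 there and 4.32 and 3.86 in parental cells, below every array's median. FGF19 read 5.23 and 5.63 in spheres, against 11.20 and 11.17 in parental cells, and 11.53 and 11.46 in Snail-labelled cells, against 8.88 and 9.0 in vector cells. It fell in spheres (log2 fold change -5.75, adjusted p = 2e-08) and rose by 2.56 (1.2e-05) in Snail-labelled cells. FGF9 fell in spheres (-3.31, adjusted p = 4.8e-07) and rose by 2.07 (3.2e-05) in Snail-labelled cells.

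All 14 cell division genes fell in spheres, with a median of -1.49, and 0 rose and 2 fell in Snail-labelled cells. TOP2A, a topoisomerase of dividing cells, read 9.34 and 9.55 in spheres, against 11.79 and 11.58 in parental cells (-2.24 ± 0.13, limma adjusted p = 1.9e-06). TYMS, which makes thymidylate, fell in spheres (log2 fold change -2.63, limma adjusted p = 3e-06) and in Snail-labelled cells (-0.61, adjusted p = 0.036). The cell division genes fell in the same comparison as ETV5, ETV4, SPRED1, SPRED2, SPRY2 and DUSP6, in which DUSP5 and DUSP4 rose. The part of cell division in those results was not tested. In bulk RNA, fewer cells with a transcript and less of it per cell cannot be told apart.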

How the data were processed

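RNA from 8 samples had been hybridised to Affymetrix arrays, and the deposited values are on the log2 scale. Per the submitters' processing notes the authors used RMA. Its settings are not given in the sources used. No rescaling was applied. Probe sets were named through GEO's platform annotation, and 41091 of 54675 named 1 gene. The highest-mean probe set of each of 19775 genes was tested with limma 3.58.1 in R 4.3.3, in 1 fit of group means on 8 arrays with 4 residual and 6.10 prior degrees of freedom, two-sided, with Benjamini-Hochberg adjustment over all genes and a threshold of 0.05. A permutation test of 2 arrays against 2 cannot go below a two-sided exact p of 0.333. The fit was tested on simulated data. The number of arrays limits the precision.

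The genes and lists were chosen with earlier results of these data known. SNAI1 was named as a label check and all 10 genes in every comparison. Up to 2 genes per list and comparison with the lowest adjusted p were named too, with the closest genes by Pearson's r for DUSP6, ETV5 and PHLDA1. DUSP1, NF1, KLB and SPRY1 in spheres and FOSL1 in Snail-labelled cells were named after their values were seen. Alternatives were each line fitted alone, array weights, quantile normalisation, median centring, a filter on dim genes, a trend in the spread, the mean of all probe sets, the replicate number as a block, each array left out, and, chosen after the data were seen, each other probe set. Promoter sequences came from a RefSeq table of GRCh38.p14, which holds 6 of the 10 genes.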

Additional observations from a re-analysis of the deposited data

Results flagged for a closer look

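The difference between spheres and parental cells in HT29 and that between Snail-labelled and vector cells in SW480 were unequal, by the interaction test in limma, in 8 of the 10 genes, against 27.5% of all genes. The differences, sphere minus parental less Snail minus vector, were 3.12 for DUSP5, -2.61 for ETV5, -1.39 for SPRED1, -1.13 for SPRY2, 0.96 for PHLDA1, -0.94 for SPRED2, -0.66 for ETV4 and 0.64 for DUSP4. The PHLDA1 value is that of its brightest probe set. Of its other probe sets, 218000_s_at gave 0.91 and 217997_at 0.43, while 225842_at gave -2.26, 217999_s_at -1.28 and 217998_at -0.42. The other DUSP4 probe sets gave -0.23 and -0.16, and the other ETV4 probe set gave -1.12. The DUSP4 call was lost in 7 and the ETV4 call in 6 of the 8 fits that left out 1 array. SNAI1 did not differ under the Snail label. Cell line, treatment and medium differ between the 2 comparisons and cannot be told apart. With 2 arrays a group, no array could be tested against its group as standing apart.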

How the results depend on the processing

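Limits. There were 2 arrays a group, no measure of detection was used, and SNAI1 did not differ under the Snail label. The differences of single genes were recomputed under the other settings: 71 of 80 values kept direction and call in the sphere comparison, 76 of 80 in the Snail comparison, 59 of 70 for the difference and 65 of 70 between lines. Fitting each line alone gives no value for the last 2. A gene not called in either fit also counts as kept, and 7 of the 10 were not called in the Snail comparison. Leaving out 1 array at a time, 4 to 9 of the 10 genes were called in spheres, 0 to 3 in Snail-labelled cells, 6 to 8 for the difference and 6 to 8 between lines. All genes called ran from 4251 to 5885, 1447 to 4087, 3931 to 5785 and 7296 to 8871 in the same order.

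With the mean of all probe sets of a gene, 1 feedback gene was called in Snail-labelled cells against 3, and PHLDA1 turned to -0.30 in spheres and -0.27 for the difference. SPRED2 in spheres had an adjusted p of 0.092 there. In Snail-labelled cells ETV4 turned to 0.02 without vector array 1, DUSP6 to -0.03 without Snail-labelled array 1 (range -0.03 to 0.23 as arrays were left out) and DUSP5 to 0.01 without Snail-labelled array 2 (range -0.84 to 0.01). Among the other probe sets, which were added as an alternative with the data in view, DUSP4 turned to -0.23 and -0.16 for the difference, DUSP6 to -0.04 and SPRED1 to -0.01 in Snail-labelled cells, and SPRED2 to -0.11 in Snail-labelled cells and 0.10 between lines. PHLDA1 turned to -0.38, -0.17, -0.77 and -1.16 in spheres, to 0.24, 0.51 and 1.10 in Snail-labelled cells, to -0.42, -1.28 and -2.26 for the difference, and to -0.60 and -1.37 between lines. The cause of these turns was not tested.

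With the replicate number as a block, 7 genes were called in spheres, 3 in Snail-labelled cells, 6 for the difference and 8 between lines, and 6081, 3065, 5281 and 8970 of all genes. The calls of SPRY2 in spheres (adjusted p = 0.051) and of DUSP4 and ETV4 for the difference (0.054 each) were lost there. Deviations of same-numbered arrays correlated at -0.06 to 0.06. The labels do not say what the number marks, and these values cannot show whether same-numbered arrays shared a culture or day.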
